A study of Arabidopsis thaliana with 28 samples.

Results

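Cytochrome P450 enzymes of 10 plant families were followed through the day in Arabidopsis thaliana seedlings grown with or without a warm midday. The members were all nuclear genes whose deposited name placed them in the CYP71, CYP76, CYP78, CYP81, CYP82, CYP86, CYP94, CYP96, CYP705 or CYP706 family, which gave 153 of the 33602 reference genes. Col-0 is the standard laboratory accession, and pif7 is a mutant of PIF7, a transcription factor of shade and warmth signalling; the allele was not named in the labels. The samples were whole seedlings 7 d old, of pif7 or Col-0, grown under 16 h of light and 8 h of dark. The oscillating regime held 27 °C between zeitgeber time (ZT, hours after lights on) 4 h and 12 h and 17 °C for the remaining hours, and the constant regime held 17 °C throughout. Seedlings were sampled 7 times, of which ZT5, ZT8 and ZT12 fall after warming began and ZT0, ZT4, ZT16 and ZT20 do not, giving 28 conditions of 1 library each. There were no replicate pools at any condition, so each p-value sets a difference against how much that difference varied. For regime differences over several times, this variation was among times within each genotype, so disagreement between genotypes did not count. For single times and time of day it was between the genotypes, pooled over times. For the genotype comparison it was among regimes and times.

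Cytochromes P450 are membrane-bound haem enzymes that use oxygen and a reductase partner to add hydroxyl groups to small molecules. In plants they build and trim defence compounds, cuticle and suberin monomers, terpenoids and hormones, and duplicated copies often stand side by side on a chromosome. The label "secondary metabolism" holds for only some of these families. CYP86 enzymes hydroxylate fatty acids for cutin and suberin, CYP94 enzymes include those that inactivate the hormone jasmonoyl-isoleucine, and CYP78A genes such as KLU set organ size.

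The largest families were CYP71 with 52 members, CYP705 with 28 and CYP81 with 17. In all, 109 members lay in 27 groups of neighbours no more than 20 kb apart, the largest with 11 genes. Of the 153 members, 97 had at least 1 TPM (the deposited level, scaled for gene length and for the total of the library) in at least 2 libraries and were tested. The other 56 were not tested, and 53 of them stayed below 1 TPM in every library, including 9 at 0 throughout. Seedlings held little transcript of several known defence and scent genes. CYP71A12, an enzyme of camalexin synthesis, reached at most 0.796 TPM, and its neighbour CYP71A13 was listed at 0 in 27 libraries. CYP82C2, which makes a hydroxylated indole nitrile, reached at most 0.0619 TPM, and the linalool-metabolizing CYP76C3 at most 0.19 TPM. PAD3, the last step to camalexin and CYP71B15 by another name, is deposited under its own symbol and is therefore no member; it had 0.733 to 4.60 TPM, with a median of 1.64. Among CYP76 genes only 2 of 9 and among CYP82 genes 2 of 5 were tested, against 21 of 28 for CYP705.

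The members together summed to between 1030 and 1674 TPM in a library. CYP86A2 and CYP81F4 had the highest mean levels. CYP86A2, an omega-hydroxylase of cutin monomers in the shoot epidermis, averaged 140.8 TPM over the 28 libraries and never fell below 93.4 TPM. CYP81F4, which hydroxylates indole glucosinolates at the ring nitrogen, averaged 127.0 TPM. They were followed by CYP71B7 at 79.2, CYP706A6 at 58.5, CYP706A1 at 55.1, CYP71B2 at 47.2 and CYP706A5 at 43.5 TPM. CYP71B34 (36.6 TPM) was among the steadiest of these, at 26.7 to 49.96 TPM over all libraries, whereas CYP706A6 ranged between 9.44 and 159.6 TPM. CYP81D11, a gene induced by cis-jasmone and xenobiotics, averaged 31.4 TPM, and CYP71B6, which breaks down indole-3-acetonitrile, averaged 29.9 TPM. CYP706A1 and CYP706A2 share sequence: 43.7% and 57.7% of their 75-base stretches occur elsewhere in the genome, so reads may be divided between them and their separate values are uncertain.

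Depth was the median ratio of deposited coverage to FPKM, a level scaled for gene length and library total, over genes high in both. It was 1.81 to 2.82 gigabases in pif7 libraries and 1.32 to 2.41 gigabases in Col-0 libraries. Transcript of PIF7 itself ranged over 1.91 to 13.1 TPM among pif7 libraries and 8.42 to 38.6 TPM among Col-0 libraries, lower in pif7 in 14 of 14 pairs. The library that stood apart for the jasmonate genes was Col-0 in the constant regime at ZT5, which held the highest value of 16 of 21 measured. It also held the highest value of 11 tested members, close to the 10 of Col-0 oscillating at ZT16 and the 8 of pif7 oscillating at ZT12, with a median of 3 over libraries. JAZ10, a repressor induced by jasmonate, had 20.5 TPM there, against a median of 2.76 TPM over the other 27 libraries. Of 11 root markers and 3 shoot markers none was at 0 in all libraries. In bulk tissue, fewer cells of a type and less RNA per cell cannot be told apart.

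The CYP94 genes that inactivate jasmonoyl-isoleucine were highest in that library. CYP94B3, a 12-hydroxylase of the hormone, had 40.6 TPM in Col-0 constant at ZT5 and 5.92 TPM at ZT8, whereas every other library had between 0.417 and 2.31 TPM. CYP94C1, which oxidizes the hydroxylated hormone further to the acid, had 39.9 and 8.68 TPM in those same libraries and at most 1.34 TPM elsewhere. CYP94B1, a second 12-hydroxylase, had 27.5 TPM there at ZT5 and 2.84 to 10.6 TPM in the other 27 libraries. At ZT5, ZT8 and ZT12 the 22 listed jasmonate genes summed to 281.8 to 438.3 TPM in the 6 oscillating libraries and 351.7 to 1114 TPM in the 6 constant ones; their part in the results was not tested. Both high values of CYP94B3 and CYP94C1 belong to Col-0 in the constant regime, and neither the pif7 libraries nor the oscillating ones had a counterpart.

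**Figure D1:**
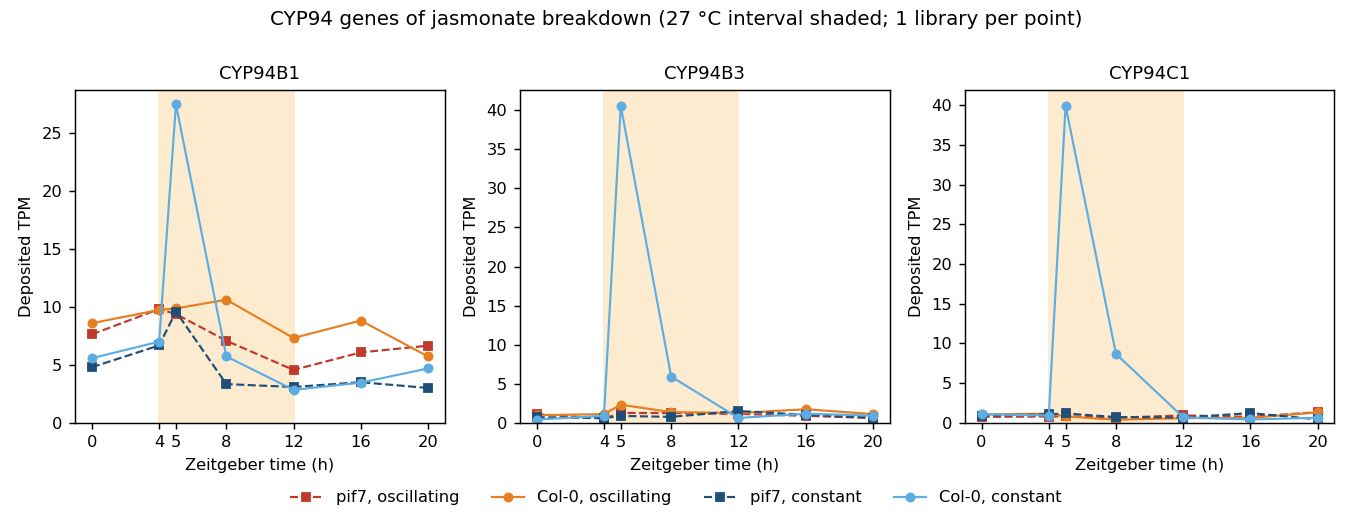
Deposited TPM of CYP94B1, CYP94B3 and CYP94C1 against zeitgeber time in hours, 1 library per point, for pif7 and Col-0 (squares and circles) in the oscillating and constant regimes; the band marks 27 °C in the oscillating regime. The Col-0 constant library at ZT5 stands alone at 27.5, 40.6 and 39.9 TPM, and for CYP94B3 and CYP94C1 the ZT8 library of that group is the next highest.

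Regimes were first compared over ZT5, ZT8 and ZT12, the sampled times that follow the start of warmth, with both genotypes together. Of the 97 members, 28 differed between oscillating and constant seedlings (28.9%), 13 higher and 15 lower, by limma on log2(rescaled TPM + 1) with Benjamini-Hochberg adjusted p under 0.05 over 21031 genes. Over all genes tested 19.4% passed, 10.5% higher and 8.97% lower, and among 57 other cytochrome P450 genes 13 passed. The median difference of the members was -0.03 and that of all genes was 0.00 on the log2 scale. Of the 32 tested CYP71 genes 9 rose and 3 fell, of the 8 CYP86 genes 1 rose and 3 fell, of the 6 CYP706 genes 2 fell, and of the 21 CYP705 genes 1 rose and 2 fell.

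A group of CYP71B and CYP71A genes was higher in warm seedlings at each warm time. CYP71B12 (AT5G25130, TAIR10 chromosome 5, 8668299 to 8670194, plus strand) had 10.2, 8.73 and 10.98 TPM at ZT5, ZT8 and ZT12 in oscillating pif7 seedlings, against 3.82, 1.55 and 5.11 TPM in constant pif7 seedlings. In Col-0 it had 11.1, 9.23 and 9.38 TPM in the oscillating regime, against 2.91, 3.15 and 3.26 TPM in the constant regime. The regimes did not overlap, and the log2 difference was 1.40 ± 0.18 (SE, adjusted p = 0.000331), which is 2.64-fold on the TPM + 1 scale. CYP71B13, which stands beside it in a tandem group of 3 with CYP71B11, had 11.6, 7.62 and 2.74 TPM in oscillating pif7, against 5.49, 1.44 and 1.45 TPM in constant pif7. In Col-0 CYP71B13 had 13.05, 9.77 and 3.05 TPM in the oscillating regime, against 5.02, 1.29 and 1.16 TPM in the constant regime. The difference of CYP71B13 was 1.30 ± 0.23 (SE, adjusted p = 0.0018), and the regimes overlapped only across different times of day.

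CYP71B2, the most abundant member of this group, had 105.2, 72.0 and 26.9 TPM in oscillating pif7, against 57.5, 19.1 and 14.9 TPM in constant pif7 at those times. In oscillating Col-0 it had 102.1, 66.6 and 29.4 TPM, against 47.6, 22.1 and 12.7 TPM in constant Col-0. It was higher in 6 of 6 pairs, by 1.23 ± 0.15 (SE, adjusted p = 0.000241). CYP71A25 was lower in abundance but as regular: its 6 oscillating libraries had 2.74 to 7.34 TPM, against 0.79 to 2.61 TPM in the 6 constant ones, a difference of 1.18 ± 0.13 (SE, adjusted p = 0.000153). CYP96A9, at 1.204 to 3.41 TPM in oscillating and 0.202 to 1.04 TPM in constant seedlings, differed by 0.95 ± 0.12 (SE, adjusted p = 0.000342). CYP705A19, with 15.6 to 22.8 TPM in oscillating and 9.66 to 14.9 TPM in constant seedlings, differed by 0.61 ± 0.08 (SE, adjusted p = 0.000363). For CYP71A25, CYP96A9 and CYP705A19 the 6 oscillating libraries all lay above the 6 constant ones.

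**Figure D2:**
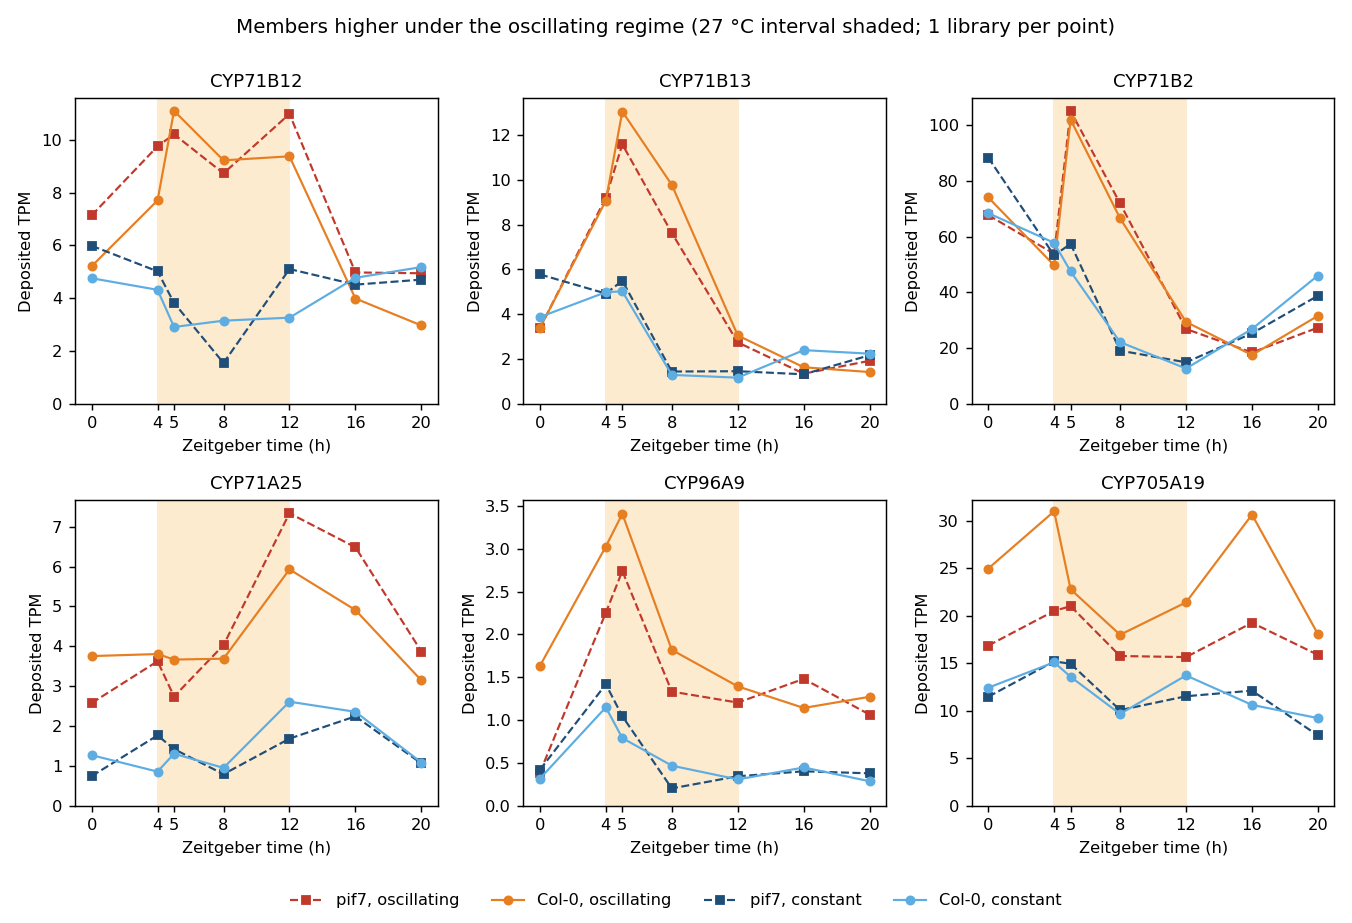
Deposited TPM against zeitgeber time in hours for 6 members that were higher in the warm window, 1 library per point, for pif7 and Col-0 in the oscillating and constant regimes; the band marks 27 °C. The oscillating lines lie above the constant ones at ZT5, ZT8 and ZT12 in all 6 panels, and for CYP71A25 and CYP705A19 also at the other times.

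Among the other 7 members that rose, CYP71A19 rose by 0.86 (adjusted p = 0.00672) and its neighbour CYP71A20 by 0.48 (adjusted p = 0.0387); they are the only members of their tandem group. CYP71B24, CYP71B28, CYP71B5 and CYP81K1 rose by between 0.33 and 0.61. CYP86A2 rose by 0.31 ± 0.09 (SE, adjusted p = 0.0228), with 129.4 to 203.9 TPM in oscillating and 103.8 to 167.0 TPM in constant seedlings, ranges that overlap although all 6 pairs were higher. CYP86A2 lost its call without ZT5, ZT8 or ZT12, with values of 0.28 to 0.35 and adjusted p up to 0.149. The adjusted p was 0.0685 for CYP71A19 and 0.074 for CYP71B5 without ZT8, and 0.095 for CYP71B28 without ZT12. CYP81K1 did not pass without ZT5, ZT8 or ZT12 (up to 0.157), CYP71A20 without ZT0, ZT8, ZT12, ZT16 or ZT20 (up to 0.362), and CYP71B24 with any time but ZT5 left out (up to 0.372).

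Among those that fell, CYP706A6 had the widest difference of those that passed whichever time was left out. It had 19.3, 37.9 and 81.9 TPM at ZT5, ZT8 and ZT12 in oscillating pif7, against 71.7, 82.9 and 95.0 TPM in constant pif7. In oscillating Col-0 it had 19.2, 48.3 and 84.6 TPM, against 57.1, 88.2 and 114.2 TPM in constant Col-0. The gap was widest at ZT5 and narrow at ZT12, and over the 3 times the difference was -0.98 ± 0.18 (SE, adjusted p = 0.0024). Without both Col-0 pairs of ZT5 and ZT8, among them the library that stood apart, it was -0.67 (adjusted p = 0.0809). Its tandem neighbour CYP706A5 fell by 0.44 (adjusted p = 0.0196; 0.0875 without ZT5 and 0.162 without ZT8), while CYP706A4 and CYP706A7 of the same group did not pass. CYP71B36 had 2.72 to 3.54 TPM in oscillating and 5.36 to 6.80 TPM in constant seedlings, without overlap, a difference of -0.78 ± 0.12 (SE, adjusted p = 0.000753). CYP71B7 fell by 0.57 (adjusted p = 0.02; 0.139 without ZT5 and 0.135 without ZT8), with a median of 76.8 TPM in oscillating and 104.9 TPM in constant seedlings.

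Enzymes with a known product were among the members that fell. Indole glucosinolates are sulphur-rich defence compounds, and CYP81F2 and CYP81F3 hydroxylate their ring at the 4-position. CYP81F2 had 0.677 to 3.52 TPM in oscillating and 2.14 to 4.06 TPM in constant seedlings and differed by -0.68 ± 0.20 (SE, adjusted p = 0.0296), and CYP81F3 differed by -0.56 ± 0.16 (SE, adjusted p = 0.024). CYP81F1 (-0.36, adjusted p = 0.13) did not pass, nor did CYP81F4, so 2 of the 4 members of this role passed. CYP81F2 did not pass without ZT8 (-0.46, adjusted p = 0.278), ZT12 (0.0724) or ZT20 (0.0524), and CYP81F3 not without ZT12 (-0.33, adjusted p = 0.252) or ZT8 (0.0605). Of 14 other genes of camalexin and indole glucosinolate synthesis, 6 fell and 1 rose. GSTF6, a glutathione transferase of camalexin synthesis, fell by 0.81, PEN2, a myrosinase, by 0.73 and IGMT2, which methylates the hydroxylated glucosinolate, by 0.70.

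Cutin and suberin hydroxylases divided. Of 6 tested members of this role CYP86A2 rose, CYP86A1 and CYP86A4 fell, and 3 did not pass. CYP86A1, a suberin hydroxylase of the root endodermis, had 6.98 to 19.7 TPM in oscillating and 14.004 to 24.8 TPM in constant seedlings, lower in 6 of 6 pairs, a difference of -0.59 ± 0.19 (SE, adjusted p = 0.038). CYP86A4, an omega-hydroxylase of cutin, differed by -0.48 ± 0.14 (SE, adjusted p = 0.0322). Without ZT12 the values were -0.38 (adjusted p = 0.232) for CYP86A1 and -0.33 (adjusted p = 0.27) for CYP86A4, and without ZT8 neither passed (0.113 and 0.151). CYP86A1 also missed the threshold without ZT0 (0.0542) or ZT20 (0.0616). Of 11 root markers 1 fell and none rose in the warm window. All 11 summed to 1503 to 1976 TPM in oscillating and 1373 to 1878 TPM in constant seedlings. Without BGLU23, the most abundant, they summed to 61.4 to 108.8 TPM in oscillating and 84.5 to 143.4 TPM in constant seedlings. Of 3 shoot markers 1 fell and none rose, and they summed to 6376 to 10960 TPM in oscillating and 9040 to 12590 TPM in constant seedlings. The part of both marker lists in the results was not tested. Of 20 other genes of cutin, suberin and wax, 7 rose and 6 fell; the largest differences were FAR5 at -1.45 and FAR1 at 1.09, which are fatty acyl reductases of suberin, and BDG1, a cutin-forming hydrolase, at 0.84.

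Of the CYP94 genes that inactivate jasmonoyl-isoleucine, CYP94C1 differed by -1.26 ± 0.37 (SE, adjusted p = 0.0288), although it was higher in 1 of 6 pairs, and the difference was -0.76 (adjusted p = 0.0917) without the Col-0 ZT5 pair and -0.03 (adjusted p = 0.925) without the Col-0 ZT5 and ZT8 pairs. CYP94B3 (-0.72, adjusted p = 0.143) and CYP94B1 (0.31, adjusted p = 0.381) did not pass, and CYP94B1 passed in the higher direction at 0.70 (adjusted p = 0.00635) without the Col-0 ZT5 pair. Of 21 other jasmonate genes 7 fell and 1 rose, and JAZ1 fell by 1.25; these were not refitted here without the Col-0 pairs. No terpenoid member of 4 tested passed: CYP705A5, which desaturates thalianol in roots, had 10.998 to 20.1 TPM in oscillating and 7.32 to 39.5 TPM in constant seedlings.

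The other 6 members that fell were of low to moderate level. CYP86C1 had only 0.106 to 0.890 TPM in pif7 and 0.0511 to 1.23 TPM in Col-0. Col-0 libraries alone thus brought it past the filter of 1 TPM in 2 libraries. CYP78A7 was also low, at 0.525 to 1.47 TPM in pif7 and 0.312 to 1.72 TPM in Col-0. CYP96A4 differed by -0.86 (adjusted p = 0.0145), CYP705A20 by -0.66 (adjusted p = 0.0149), CYP86C1 by -0.57 (adjusted p = 0.00823), and CYP71A14, CYP78A7 and CYP705A9 by -0.50 to -0.38. Each of these 6 lost its call with some time left out, with values that kept their sign. CYP96A4 missed it without ZT5 (-0.73, adjusted p = 0.0607) or ZT12 (0.0926), CYP705A20 without ZT8 (0.158) or ZT12 (0.144), and CYP86C1 without ZT8 (0.0998). CYP71A14 and CYP78A7 missed it with any 1 of the 3 warm times left out (up to 0.129 and 0.209), and CYP705A9 with any time but ZT8 left out (up to 0.307). In all, 8 of the 28 passed whichever sampled time was left out: CYP71B12, CYP71B13, CYP71B2, CYP71A25, CYP96A9, CYP705A19, CYP706A6 and CYP71B36.

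**Figure D3:**
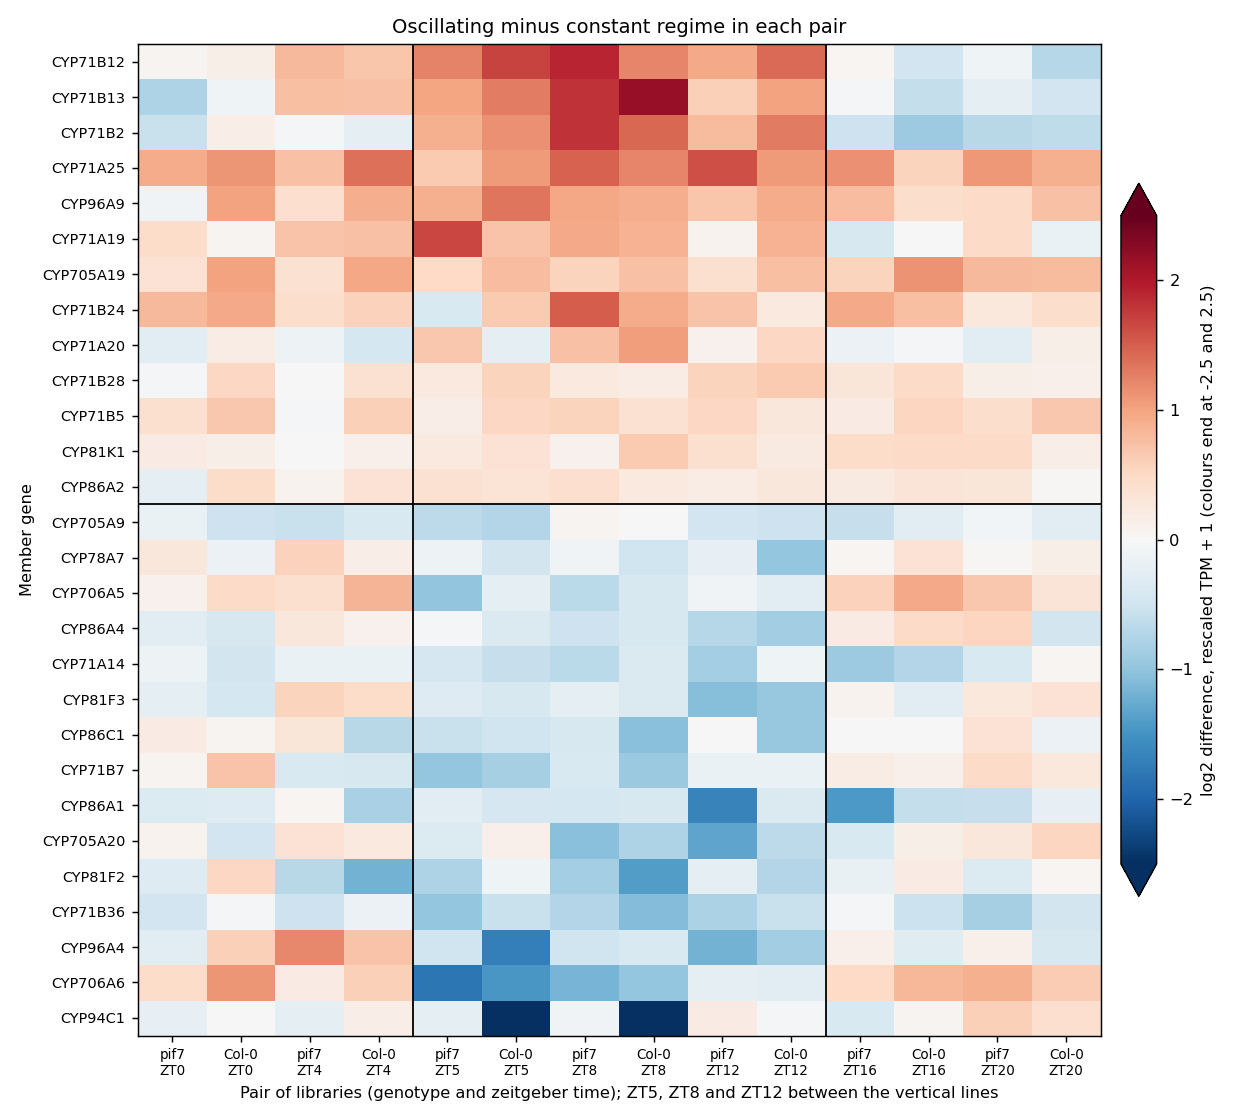
Oscillating minus constant log2 difference, on the rescaled TPM + 1 scale, in each of the 14 pairs of libraries (columns, by zeitgeber time and genotype) for the 28 members that passed in the warm window (rows, ordered by their difference there). CYP71A25 and CYP705A19 are positive in every pair, CYP706A6 is negative at ZT5 to ZT12 and positive at the other times, and the 2 darkest cells of CYP94C1 are the Col-0 pairs at ZT5 and ZT8.

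The promoters of CYP71B2, described above, and of CYP76C1 and CYP71B20, described next, are shown because each carries a motif of clock or light regulation; they were chosen after the values were seen. They are the 250 bases before the deposited start, read from the RefSeq TAIR10.1 genome; motif matches are in capitals. CYP71B2 stands on chr1:4458916-4459165, plus strand, and holds a G-box, CACGTG, the core bound by PIF proteins. CYP76C1, a linalool oxidase, stands on chr2:18778511-18778760, minus strand, and CYP71B20 on chr3:9580087-9580336, minus strand. Both hold the evening element AAAATATCT, in CYP71B20 on the opposite strand, and CYP71B20 also holds 2 matches to the heat shock element GAANNTTC.
CYP71B2: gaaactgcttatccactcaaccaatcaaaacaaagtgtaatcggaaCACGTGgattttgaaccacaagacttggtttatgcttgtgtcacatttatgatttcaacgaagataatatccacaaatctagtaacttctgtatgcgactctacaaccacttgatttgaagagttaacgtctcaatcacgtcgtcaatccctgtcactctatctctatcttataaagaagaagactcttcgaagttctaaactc
CYP76C1: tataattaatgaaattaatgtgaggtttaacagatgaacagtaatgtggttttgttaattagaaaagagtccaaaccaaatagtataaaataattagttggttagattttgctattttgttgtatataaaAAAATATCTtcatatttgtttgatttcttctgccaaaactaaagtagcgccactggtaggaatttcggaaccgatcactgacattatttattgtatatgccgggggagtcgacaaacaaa
CYP71B20: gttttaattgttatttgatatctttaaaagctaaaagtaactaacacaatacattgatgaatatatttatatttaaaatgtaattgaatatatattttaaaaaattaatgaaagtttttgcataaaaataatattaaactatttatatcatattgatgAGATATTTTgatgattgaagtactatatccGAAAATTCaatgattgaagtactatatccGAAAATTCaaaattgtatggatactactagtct
Both strands of each window were searched. The evening element was present before 4 of the 153 members (2.61%; CYP76C1, CYP71B20, CYP705A25 and CYP86A1) and before 2.13% of all 33322 nuclear gene starts. The G-box stood before 7 members (4.58%) and 6.75% of all genes, the heat shock element before 14 (9.15%) and 9.5%, the CCA1-binding letters AAAAATCT before 10 (6.54%) and 6.12%, and the W-box core TTGACC before 23 (15%) and 11.9%. These are matches of letters only.

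CYP76C1 and CYP71B26 had opposite differences early and late in the warm interval. At ZT5, CYP76C1 had 4.69 TPM in oscillating pif7 and 5.70 TPM in oscillating Col-0, against 29.7 TPM in constant pif7 and 23.7 TPM in constant Col-0. At ZT12 it had 43.5 and 40.7 TPM in oscillating pif7 and Col-0, against 21.8 and 26.5 TPM in constant pif7 and Col-0. The log2 differences of CYP76C1 were -2.11 ± 0.17 at ZT5 (SE, adjusted p = 1.62e-05), -0.77 ± 0.17 at ZT8 (adjusted p = 0.0148) and 0.85 ± 0.17 at ZT12 (adjusted p = 0.00715). With either pair left out the ZT5 difference still passed, while those at ZT8 and ZT12 did not (adjusted p up to 0.208 and 0.0836). CYP71B26 had 14.6 and 14.7 TPM at ZT5 in oscillating pif7 and Col-0, against 56.3 and 48.6 TPM in constant pif7 and Col-0. At ZT12 CYP71B26 had 42.2 and 54.6 TPM in oscillating pif7 and Col-0, against 15.9 and 12.1 TPM in constant pif7 and Col-0. Its differences were -1.73 ± 0.19 (SE, adjusted p = 0.000188) at ZT5 and 1.78 ± 0.19 (SE, adjusted p = 0.000219) at ZT12, and both passed with either pair left out. Neither gene passed over the 3 warm times together.

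Among single times, 18 of 97 members differed at ZT5, 6 higher and 12 lower, against 7.59% of all genes (4.03% higher, 3.56% lower). At ZT8 21 members differed, 13 higher and 8 lower, against 10.5% of all genes (5.18% higher, 5.33% lower). At ZT12 24 members differed, 13 higher and 11 lower, against 16.2% of all genes (9.13% higher, 7.05% lower). With TPM not rescaled the ZT8 calls were 15 higher and 7 lower, and over all genes the share of higher calls there was 65.6%, against 49.3% after rescaling. At ZT5 the members that fell also included CYP706A6 (-1.64, adjusted p = 0.000149), CYP96A4, CYP71B20 (-0.97), CYP71B7 (-0.89) and CYP71B23 (-0.80). At ZT8, CYP82C4, which turns fraxetin into the iron-chelating coumarin sideretin, had 0.857 and 1.78 TPM in oscillating pif7 and Col-0, against 3.68 and 11.2 TPM in constant pif7 and Col-0, a difference of -1.82 ± 0.38 (SE, adjusted p = 0.0122). It did not pass with the Col-0 pair or the pif7 pair left out (adjusted p = 0.26 and 0.0696). At ZT12 CYP71B4 rose by 1.48 ± 0.22 (SE, adjusted p = 0.00161), CYP71B3 by 1.11, CYP71B19 by 1.04 and CYP71B20 by 1.00, while CYP71B36, in the same tandem group as CYP71B4 and CYP71B26, fell by 0.68 (adjusted p = 0.0394). CYP71B19 and CYP71B20 share 13.4% and 12.8% of their 75-base stretches with other places in the genome. Each call at a single time rests on 2 pairs: 3 of the 18 at ZT5, 2 of the 21 at ZT8 and 3 of the 24 at ZT12 passed under every left-out pair and time, and these were CYP706A6, CYP71B26 and CYP76C1, then CYP71B13 and CYP71B2, then CYP71B26, CYP71B4 and CYP81F3.

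Both suberin hydroxylases and CYP71A27 were lower at the end of the warm interval. At ZT12 CYP86B1, which acts on very long-chain suberin monomers, had 1.25 and 2.76 TPM in oscillating pif7 and Col-0, against 6.63 and 4.78 TPM in constant pif7 and Col-0, a difference of -1.13 ± 0.28 (SE, adjusted p = 0.021). CYP86A1 had 6.98 and 9.63 TPM in oscillating pif7 and Col-0, against 24.1 and 14.004 TPM in constant pif7 and Col-0 (-1.01 ± 0.29, SE, adjusted p = 0.0375). CYP71A27, which takes part in camalexin synthesis in roots, had 4.05 and 4.89 TPM in oscillating pif7 and Col-0, against 11.7 and 8.92 TPM in constant pif7 and Col-0 (-0.98 ± 0.24, SE, adjusted p = 0.0198). CYP81F3 fell by 1.00 ± 0.15 (SE, adjusted p = 0.00183) and CYP78A9, a gene of fruit and seed size, by 1.27 ± 0.25 (SE, adjusted p = 0.00687). With either pair left out CYP81F3 passed and CYP78A9 did not (adjusted p up to 0.0706). Without the pif7 pair CYP86B1 was at -0.50 (adjusted p = 0.328), CYP86A1 at -0.35 (adjusted p = 0.501) and CYP71A27 at -0.61 (adjusted p = 0.237). Of 11 root markers 2 fell at ZT12 and none rose, and they summed to 1503 and 1777 TPM in the oscillating libraries, against 1373 and 1832 TPM in the constant ones. Without BGLU23, the most abundant, they summed to 61.4 and 93.1 TPM in the oscillating libraries, against 95.3 and 120.5 TPM in the constant ones. Of 3 shoot markers 1 fell, and they summed to 6376 to 6601 TPM in oscillating and 9040 to 10230 TPM in constant libraries. None of these markers was at 0 in all libraries, and their part in the results was not tested. Of 20 other cutin, suberin and wax genes 6 fell and 3 rose at ZT12, with FAR5 at -2.34, and of 9 coumarin and iron uptake genes 3 fell, IRT1 by 1.73.

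Outside the warm interval fewer members differed. Over ZT0, ZT4, ZT16 and ZT20, 9 of 97 members passed (9.28%), 7 higher and 2 lower, against 5.32% of all genes (2.62% higher, 2.7% lower). Of the 57 other cytochrome P450 genes 8 passed (14%), 7 higher and 1 lower. With TPM not rescaled, 13 members were higher and 1 lower. All genes then shifted by a median of 0.11 (log2), with 79.1% of their calls higher, against 49.2% after rescaling. CYP71A25 was again higher, with 2.57 to 6.48 TPM in the 8 oscillating libraries and 0.74 to 2.35 TPM in the 8 constant ones (0.98 ± 0.12, SE, adjusted p = 0.000546). CYP705A19 had 15.9 to 31.0 TPM in oscillating and 7.39 to 15.2 TPM in constant libraries at those times, a difference of 0.75 ± 0.07 (SE, adjusted p = 0.000214). Both were higher in 8 of 8 pairs. CYP706A6 and CYP706A5, which fell in the warm interval, rose outside it, by 0.65 ± 0.15 (SE, adjusted p = 0.027) and 0.55 ± 0.10 (SE, adjusted p = 0.00823), higher in 8 of 8 pairs each. At ZT16 CYP706A6 had 118.1 and 159.6 TPM in oscillating pif7 and Col-0, against 78.7 and 70.9 TPM in constant pif7 and Col-0. Without ZT16 the values were 0.65 (adjusted p = 0.146) for CYP706A6 and 0.47 (adjusted p = 0.0824) for CYP706A5, and CYP706A6 also did not pass without ZT0, ZT4, ZT8 or ZT20 (up to 0.123). CYP71B24, CYP96A9 and CYP71B5 rose and CYP71B36 and CYP705A27 fell; of the 9, CYP705A19, CYP71A25 and CYP71B5 passed whichever time was left out.

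Single times outside the interval gave few calls. At ZT0 1 member, CYP71B23, passed in the higher direction, against 0.799% of all genes (0.319% higher, 0.48% lower), with 24.9 and 20.3 TPM in oscillating pif7 and Col-0, against 11.8 and 8.22 TPM in constant pif7 and Col-0 (1.05 ± 0.18, SE, adjusted p = 0.021). At ZT5 CYP71B23 was lower in the oscillating libraries, at 4.53 and 3.12 TPM in pif7 and Col-0, against 9.29 and 6.02 TPM in the constant ones. With TPM not rescaled 3 members rose at ZT0, where 55.2% of all calls were higher, against 39.9% after rescaling. At ZT4, when the warm interval began, 4 members passed (2 higher, 2 lower), against 4.78% of all genes (2.54% higher, 2.24% lower). Among the 57 other cytochrome P450 genes 14% passed at ZT4 and 10.5% at ZT16. At ZT16 3 members passed (1 higher, 2 lower), against 3.05% of all genes (1.42% higher, 1.64% lower). Without rescaling the ZT16 calls were 8 higher and 0 lower, with all genes shifted by 0.18 and 78.1% of calls higher, against 46.4%. At ZT20 no member passed with limma, against 0.875% of all genes (0.214% higher, 0.661% lower), and 14 had an unadjusted p under 0.05. Without rescaling 2 members rose at ZT20, with all genes shifted by 0.15 (log2) and 42.6% of calls higher, against 24.5%. Every call at ZT0, ZT4 and ZT16 was lost both with the pif7 pair and with the Col-0 pair left out.

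Many genes, members among them, differed among the sampled times. Temperature changed with the hour in the oscillating regime, so time of day and warmth cannot be told apart there. In the oscillating regime 74 of 97 members differed among the 7 sampled times (76.3%), against 65.7% of all genes. In the constant regime 31 members differed (32.0%), close to the 30.6% of all genes. Among the 57 other cytochrome P450 genes the shares were 78.9% in the oscillating and 42.1% in the constant regime. The size is given as the highest minus the lowest log2 mean over both genotypes. The constant regime's widest ranges were CYP71B26 at 4.25, CYP76C1 at 3.74, CYP82C4 at 3.60, CYP706A6 at 3.23 and CYP71B2 at 2.498. In the oscillating regime CYP82C4 came first at 4.71, then CYP71B26 at 3.99, CYP706A6 at 2.81, CYP76C1 at 2.78 and CYP71B2 at 2.59. CYP82C4 was highest at ZT5 in both regimes and lowest at ZT12, at 20.6 and 44.6 TPM for ZT5 and 0.273 and 0.171 TPM for ZT12 in oscillating pif7 and Col-0. In the constant regime without ZT12 the CYP82C4 range was 2.07, and without ZT0 that of CYP76C1 was 2.26. With any 1 time left out, 19 of the 31 constant calls and 53 of the 74 oscillating calls were kept throughout.

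Of the 30 members that passed in both regimes (96.8% of the constant calls and 40.5% of the oscillating ones), 11 had their highest sampled time in common, 17 had a later one in the oscillating regime, counted around the clock, and 2 an earlier one. CYP76C1 was highest at ZT8 in constant and at ZT12 in oscillating seedlings. CYP71B20, CYP71B7, CYP706A1 and CYP706A2 made the same step, and CYP706A5, CYP706A6 and CYP71B6 were highest at ZT12 in constant and at ZT16 in oscillating seedlings. CYP71B2 was highest at ZT0 in constant and at ZT5 in oscillating seedlings. In oscillating seedlings it had 53.9 and 49.8 TPM in pif7 and Col-0 at ZT4 and 105.2 and 102.1 TPM at ZT5, 1 h into the warmth, while constant seedlings had 53.3 and 57.8 TPM at ZT4 and 57.5 and 47.6 TPM at ZT5. CYP71B26, CYP71B4 and CYP82C4 had the same highest time in both regimes, and so did CYP96A4 at ZT16. Times were 1 to 4 h apart, so a step in the highest time is known only to that spacing, and it carries no test of its own. The same count was not made over all genes, so later highest times are not shown to be particular to the members.

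The last comparisons ask how far the members depended on PIF7. Within pif7 alone 7 members passed in the warm interval (5 higher, 2 lower), against 3.75% of all genes (2.34% higher, 1.41% lower). Within Col-0 alone 10 passed (6 higher, 4 lower), against 4.41% (2.73% higher, 1.67% lower). CYP71B12, CYP71B2, CYP71A25, CYP96A9, CYP705A19 and CYP71B36 passed in each genotype. Without ZT8 neither genotype alone had a call among the members. The difference of CYP71B12 was 1.37 ± 0.26 for pif7 seedlings and 1.44 ± 0.26 for Col-0 seedlings (SE). That of CYP71B2 was 1.16 ± 0.21 for pif7 seedlings and 1.30 ± 0.21 for Col-0 seedlings (SE). The difference between the genotypes' responses passed for 0 of 97 members with limma and for 0% of all genes, with 3 members at an unadjusted p under 0.05. These were CYP94C1 (2.43 ± 0.74, SE), CYP94B3 (1.69 ± 0.67, SE) and CYP78A7 (0.50 ± 0.23, SE), given as pif7 minus Col-0, each with a limma adjusted p of 1. CYP94C1 passed without ZT12 (3.53, adjusted p = 0.0198), and without the Col-0 ZT5 and ZT8 pairs its value was -0.02 (adjusted p = 0.992). A missed threshold with 1 library per condition does not show that the responses were alike. Over the 97 members the 2 genotypes' differences had a Pearson correlation of 0.757, with 82 of the same sign. The members share libraries, and no value over all genes is set beside it. Without the 3 CYP94 genes, which were highest in Col-0 constant at ZT5, the correlation was 0.903 over 94 members. That choice follows these same values, and neither correlation tests dependence on PIF7.

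**Figure D4:**
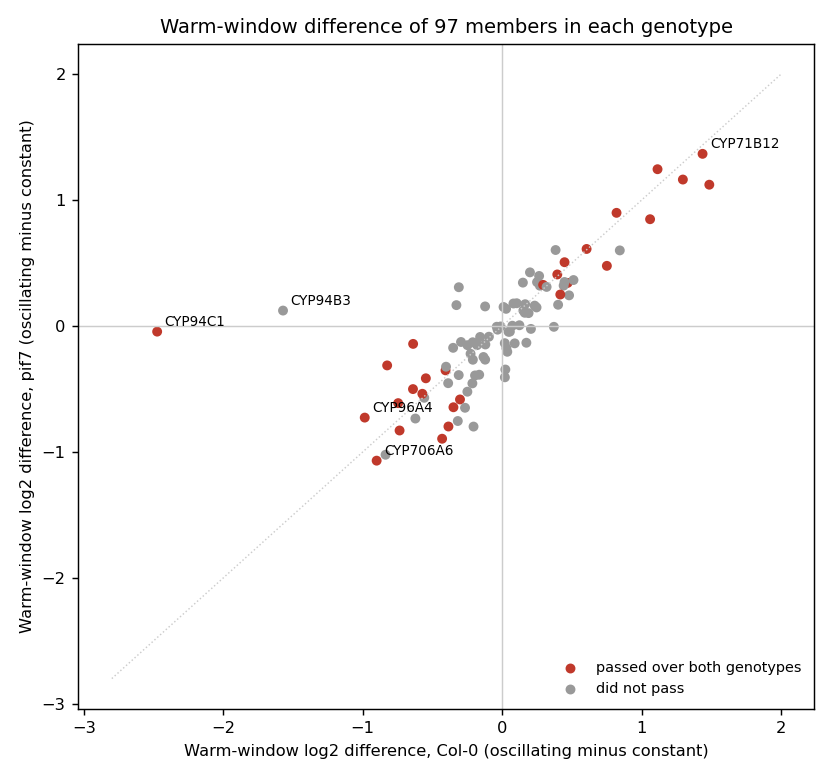
Warm-window log2 difference, oscillating minus constant on the rescaled TPM + 1 scale, in pif7 (vertical) against Col-0 (horizontal), 1 point per tested member, 97 in all; red points passed over both genotypes together and the dotted line marks equal values. CYP94C1 at -2.47 and CYP94B3 at -1.57 in Col-0 lie away from the line.

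Between the genotypes themselves, over all 14 pairs, 1 of 97 members passed, higher in pif7, against 0.361% of all genes (0.266% higher, 0.0951% lower), and 13 had an unadjusted p under 0.05. That member, CYP81K1, had 5.78 to 9.94 TPM with a median of 6.72 in pif7, against 3.87 to 7.71 TPM with a median of 6.17 in Col-0. It was higher in pif7 in 12 of 14 pairs, by 0.29 ± 0.05 (SE, adjusted p = 0.0219), although the ranges overlap. CYP81K1 did not pass without ZT0, ZT4, ZT5, ZT12 or ZT16, at 0.26 to 0.30, with adjusted p up to 0.133. CYP86A2, CYP81F4, CYP71B7 and the 3 CYP94 genes did not pass between genotypes.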

How the data were processed

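RNA was taken from 28 pools of whole seedlings with a directional kit and sequenced in paired ends, per the labels. The authors aligned reads with HISAT2 to TAIR10 and assembled transcripts with StringTie, per the submitters' processing notes; versions and options are not given in the sources used here. The deposited tables list coverage, FPKM and TPM per gene. Depth came from the ratio of coverage to FPKM, and FPKM was not used otherwise. The deposited TPM add up to 1000000 over assembled loci, among which the 33602 reference genes were listed again.

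The 21031 genes that reached 1 TPM in 2 or more libraries were kept. TPM were rescaled by median ratios, 1 was added, and log2 values went into limma 3.58.1 (R 4.3.3) with a variance trend, fitted over all genes with a term for each pair of libraries that share genotype and time (regime and time for the genotype comparison; time-of-day fits had terms for time and genotype), with Benjamini-Hochberg adjustment over all of them and a threshold of 0.05. TPM in the text are as deposited. With no replicate pools, the residual spread came from differences among times, regimes or genotypes, according to the comparison. Scripts were tested on simulated data. Promoters came from RefSeq TAIR10.1, whose gene spans overlapped the deposited ones for all 153 members. Deposited names were used, except that AT3G28740, deposited as a second CYP81D1, is called CYP81D11 as in RefSeq.

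Members and gene lists were chosen with earlier results of these data known. Named are members with a known role, the 10 with the highest mean TPM, up to 8 highest and 8 lowest passed differences per comparison, up to 5 widest ranges per regime, the 3 of smallest p between the genotypes' responses, and PIF7; a few further passed members were named after their values were seen. Alternatives were other pseudocounts, no filter, a mean of at least 5 TPM, unscaled TPM, no variance trend, only the compared pairs, and leaving out each time or pair.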

Additional observations from a re-analysis of the deposited data

How the results depend on the processing

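No passed difference of a member reversed its direction under the alternatives tried. Counts of passed members that moved by over 1.5 times follow. Shares over all genes are not set beside them, so they do not show a change particular to the members. Requiring a mean of at least 5 TPM, which leaves 48 members, gave 12 in the warm window, 4 outside it, 4 in pif7, 4 in Col-0, 10 at ZT5, 11 at ZT8, 13 at ZT12 and 42 over the day in the oscillating regime. Fitting only the compared pairs gave 15 in the warm window, 0 in pif7 and 0 in Col-0, 0 at ZT0, 14 at ZT4, 16 at ZT16 and 1 at ZT20. Unscaled TPM gave 14 outside the window, 3 at ZT0, 2 at ZT4, 8 at ZT16 and 2 at ZT20. A pseudocount of 0.1 gave 2 at ZT0, a pseudocount of 5 gave 7 at ZT16, and no filter gave 2 at ZT4 and 0 at ZT16. The cause was not tested beyond the smaller sets of genes and samples.

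Leaving out 1 time or pair gave 11 to 30 members in the warm window (30 without ZT5, 11 without ZT8), 4 to 10 outside it, 0 to 7 in pif7, 0 to 10 in Col-0, 0 to 1 for the difference between genotypes' responses and for the genotypes, 0 to 1 at ZT0, 0 to 5 at ZT4, 4 to 19 at ZT5, 2 to 23 at ZT8, 5 to 25 at ZT12, 0 to 9 at ZT16, 0 to 1 at ZT20, 26 to 33 over the day in the constant regime and 65 to 75 in the oscillating one. The regimes were compared within pairs of the same genotype and time throughout; no fit with a replicate number as a block was possible because each condition had 1 library and the labels gave no such numbers. The leave-out counts likewise stand without shares over all genes. Depth limits what can be said of the 56 untested members.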
